A study of Mus musculus with 4 samples.

Results

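The genes described here encode the proteasome, the protease that degrades ubiquitin-tagged proteins, in blood stem and progenitor cells of mice. Members were the genes whose symbol is Psma to Psmg followed by a number, with a level of at least 5 CPM in at least 1 library. CPM counts the unique molecular identifiers (UMIs, each standing for 1 captured transcript molecule) of a gene per 1000000 UMIs of the library. Of 49 such symbols among 32285 genes counted, 48 passed and 1 did not, Psmb11, which encodes the beta subunit of the thymus form and was at 0.0249 CPM or less in every library. By known role the 48 were 8 alpha and 7 constitutive beta subunits of the 20S core, 3 immunoproteasome beta subunits (Psmb8, Psmb9 and Psmb10), 6 ATPases and 11 other subunits of the 19S cap, 5 activators, 1 inhibitor and 7 assembly chaperones. The level minimum was met by 11075 genes in all, which serve as the background below.

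The 20S core is a barrel of alpha and beta rings in which Psmb5, Psmb6 and Psmb7 carry the catalytic sites. In blood cells, and under interferon, these 3 can be replaced during assembly by Psmb8, Psmb9 and Psmb10, which gives the immunoproteasome, known for making peptides that class I molecules present. The 19S cap recognises ubiquitin and unfolds the substrate with its ring of Psmc ATPases, while the Psme1 and Psme2 proteins form an alternative cap, PA28, that opens the core without ATP.

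The cells came from bone marrow of transplanted mice, 10 weeks after transplantation, and were sorted for the donor marker CD45.2, for Sca1 and Kit and against lineage markers (LSK cells). There was 1 library for each of 4 genotypes: control, Mll3 deleted, Mll4 deleted and Mll3/4 deleted. Mll3 and Mll4 are histone methyltransferases encoded by Kmt2c and Kmt2d. The labels do not state how many mice stand behind a library, or which Cre or promoter deleted the alleles. Since each genotype had 1 library, differences have no replicate check and no p-value, and every interval below is a 95% interval of counting error only. A member is called higher or lower than control where its log2 ratio is past 0.5 in size, which is a fold of 1.41.

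The kept cells numbered 4748 to 7274 per library and held 50792614 to 120700343 UMIs, with medians of 8920 to 21400 UMIs per cell. Kmt2c was at 68.9 CPM in the control library and 35.3, 61.3 and 42.3 in the Mll3, Mll4 and Mll3/4 libraries. Kmt2d was at 24.6, 21.6, 22.6 and 25.4 in the same order. These are 3-prime counts, which need not cover a deleted exon, and Kmt2d did not go with the Mll4 labels, so the libraries are called Mll3-labelled, Mll4-labelled and Mll3/4-labelled. A pair of libraries stood apart. In the Mll4-labelled library 44.7% of cells carried markers of mast cells, macrophages, plasma or mature B cells, innate lymphoid or T cells, or stroma, against 0.274% to 2.49% in the others, and Igkc UMIs were found in 97.7% of its cells. In the Mll3/4-labelled library 99.5% of cells had B-lineage transcripts, against 0.522% to 3.93% in the others, and the summed level of 5 stem cell markers was 5.28 CPM against 467.6 in the control. Between 7 and 14 cell barcodes were shared by any pair of libraries.

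**Figure D1:**
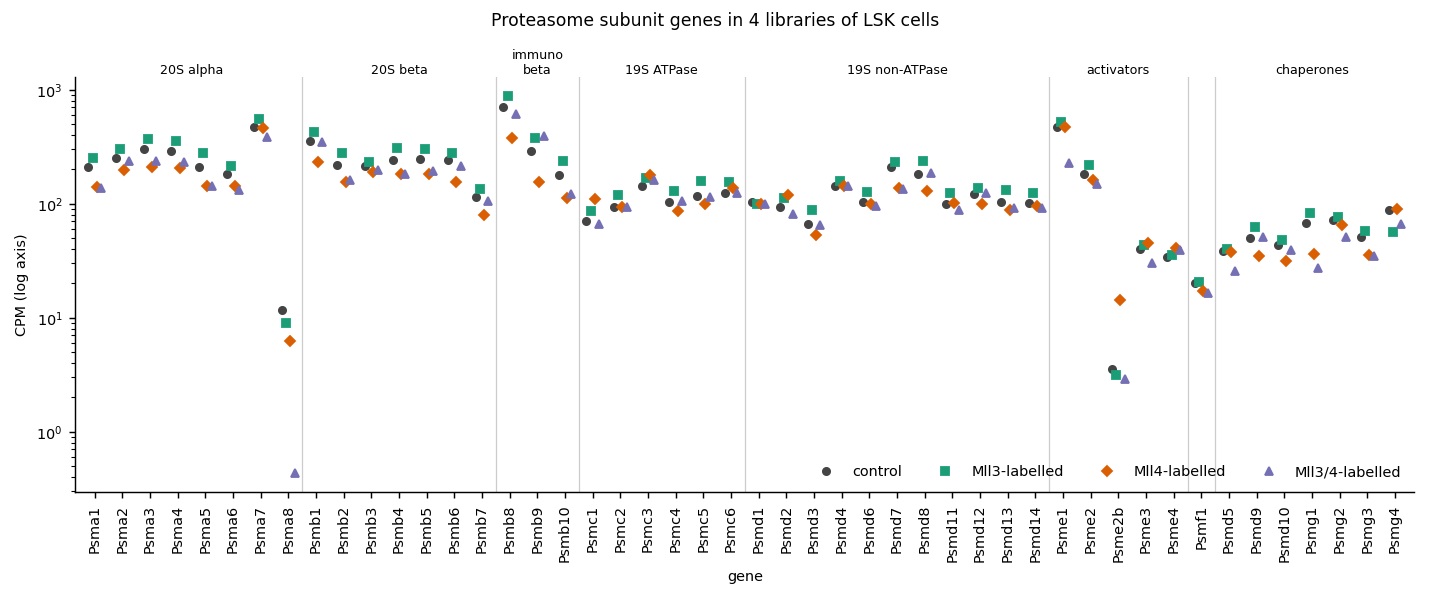
Level of each of the 48 proteasome genes in the 4 libraries, in CPM on a log axis, grouped by part of the proteasome; each point is 1 library, and the unlabelled block between activators and chaperones holds Psmf1. The Mll3-labelled points lie above control for 44 genes, the Mll4-labelled points lie lowest for Psmb8, Psmb9 and Psmb10, and Psma8 is at 0.433 CPM in the Mll3/4-labelled library. With Mll3 7480 of the 11075 background genes lie above control too.

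Across the 3 comparisons the standard subunits, meaning the 45 members other than Psmb8, Psmb9 and Psmb10, moved by small amounts and in different directions. Together they took 6706 CPM in the control library. The sum was 7968 CPM with Mll3 deleted by label, 5640 with Mll4 and 5545 with Mll3/4. The log2 ratio of that sum to control was 0.25 (0.24 to 0.25) with Mll3, -0.25 (-0.25 to -0.25) with Mll4 and -0.27 (-0.28 to -0.27) with Mll3/4. The immunoproteasome sum followed another pattern: 1173 CPM in control, 1492 with Mll3, 648.4 with Mll4 and 1132 with Mll3/4. The log2 ratio of the last was -0.05, and 0.02 with TMM scaling, so its direction depended on the scaling. The median log2 ratio of all 11075 background genes was 0.10, -0.10 and -0.13 in the same order. Past a fold of 2 in either direction there were 0 members with Mll3, 1 with Mll4 and 3 with Mll3/4, beside 4.51%, 14.6% and 25.8% of background genes. All 3 comparisons use the same control library.

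The Mll3-labelled library had slightly more of nearly every proteasome transcript. Of the 48 members 44 were above control, with a median log2 ratio of 0.27. Of the 11075 background genes 7480 were above control as well, with a median of 0.10, or 0.0049 with TMM scaling. No member was called higher, where 7.47% of background genes were, and 1 was called lower, where 6.26% were. The median was 0.26 for the 15 constitutive core subunits, 0.30 for the 17 cap subunits and 0.37 for the 3 immunoproteasome subunits. It was 0.15 for the 7 chaperones and 0.13 for the 5 activators, and the inhibitor was at 0.03. With the totals scaled by TMM the summed ratio of the standard subunits was 0.15 instead of 0.25.

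The 5 members furthest above control came from the core, the cap and the immunoproteasome. Psmc5, an ATPase of the cap, was at 118.1, 159.7, 99.3 and 115.9 CPM (log2 ratio 0.43 with Mll3). These and all later sets of 4 values run from control over Mll3 and Mll4 to Mll3/4. Psma5, an alpha subunit of the core, was at 210.5, 279.8, 143.2 and 144.2 (0.41 with Mll3), high in the Mll3-labelled library and low in the remaining mutants. The cap subunit Psmd3 was at 66.6, 88.3, 52.8 and 64.95 (0.41). Psmd8, another cap subunit, was at 181.1, 237.7, 129.4 and 186.5 (0.39). Psmb10 completed the 5 and is described with its family below.

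The member called lower was Psmg4, a chaperone that helps assemble the alpha ring (chromosome 13, 34162964 to 34178173, plus strand, GRCm38). It was at 88.3, 57.0, 89.98 and 66.6 CPM, and the log2 ratio with Mll3 was -0.63 (-0.68 to -0.59). The Mll3-labelled library was the lowest of the 4. The ratio was between -0.72 and -0.53 in the 5 antibody gates used below. Its partner chaperones did not share this: Psmg3 was at 51.1, 57.9, 35.2 and 34.7. A further 3 members were below control without being called, Psma8 and Psme2b, described below, and Psmd1, the largest cap subunit, at 104.3, 100.4, 100.6 and 99.5. Psmf1, which encodes the inhibitor PI31, was level at 20.3, 20.8, 17.3 and 16.4. Outside the symbol rule, the small cap subunit Sem1 was also lower with Mll3, at 292.1, 186.3, 598.8 and 424.2 (log2 -0.65).

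**Figure D2:**
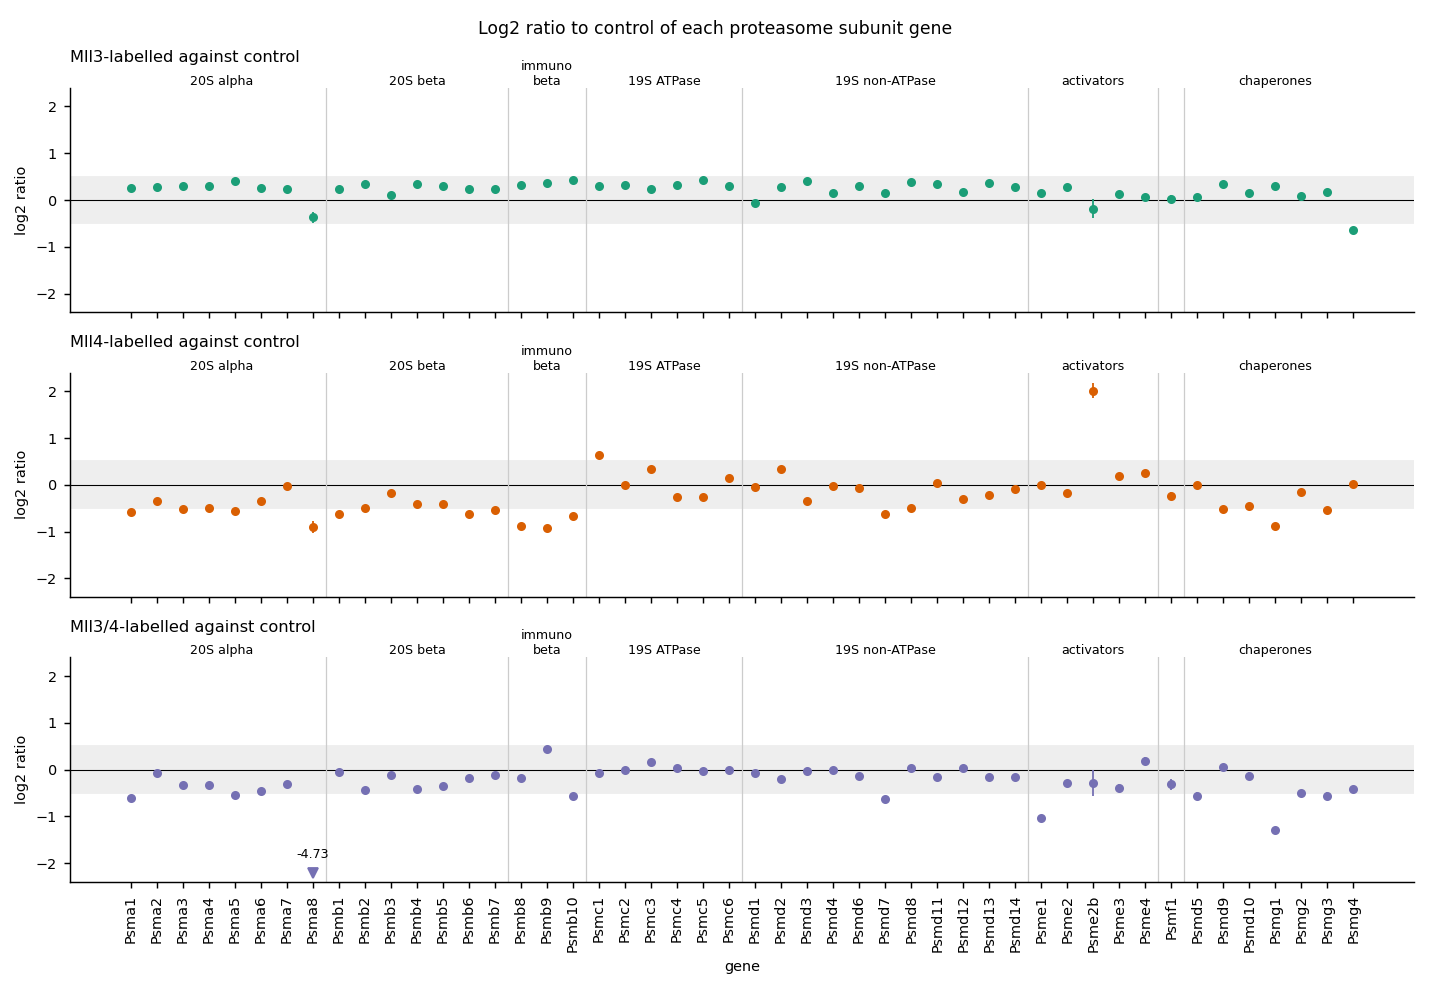
Log2 ratio to control of each of the 48 genes in the 3 mutant libraries, top to bottom Mll3, Mll4 and Mll3/4, grouped by part of the proteasome; bars are exact 95% intervals of counting error, mostly smaller than the points, the grey band spans log2 ratios within 0.5 of 0, and the triangle is Psma8 at -4.73, beyond the axis. The 15 constitutive core genes lie below 0 in both lower panels, and 8 of the 17 cap genes with Mll4 and 16 with Mll3/4 lie within 0.25 of 0. Of the 11075 background genes 6430 and 6475 lie below 0 in these comparisons, and 36.3% and 30.7% within 0.25 of it.

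In the Mll4-labelled library the core and the immunoproteasome were lower, and the cap genes lay on both sides of control. Of the 48 members 16 were called lower, where 20.5% of background genes were, and 2 were called higher, where 17.2% were. Of these 2, Psme2b met the level minimum through this library alone. All 15 constitutive core genes were below control (median log2 ratio -0.50, 9 called lower), as were all 3 immunoproteasome genes (median -0.88, all called lower). Of the 11075 background genes 6430 were below control. Of the 17 cap genes 12 were below and 5 above, with 1 called in each direction and a median of -0.07.

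The counts moved with the cells that carry markers of other types. In the Mll4-labelled library those cells had a median of 7942 UMIs, against 33313.5 in its remaining cells. Removing them thus also removed shallow cells, and cell type and depth cannot be told apart in this step. The plasma or mature B list, which holds Igkc, was passed by 939 cells, while Igkc UMIs were in 97.7% of all cells of this library. The summed level of the 5 mast cell markers was 852.4 CPM in this library and 2.07 to 3.18 in the others, where 2 to 4 of the 5 were at 0. That of the 6 macrophage markers was 528.6 against 6.38 to 14.5, of the 5 plasma or mature B cell markers 9765 against 846.0 to 4258, of the 6 innate lymphoid or T cell markers 135.3 against 27.1 to 52.1, and of the 5 stroma markers 33.6 against 0.67 to 5.73. Without these cells, removed from both libraries, 2 members were called higher and 6 lower in the Mll4-labelled library, beside 14.2% and 21% of background genes. The 9 core genes called lower with all cells thus did not all stay called. The constitutive core sum was 2689 CPM against 3562 in control with these cells, and 2918 against 3577 without them. The summed ratio of the standard subunits was then -0.15 instead of -0.25, and the cap median was 0.05, so the direction of the cap median turned with this choice, as did that of the cap sum (-0.08 with these cells and 0.03 without). The immunoproteasome sum hardly changed when they were removed: its log2 ratio to control was -0.85 with these cells and -0.81 without. Among cells with such markers it was -0.83, but those cells differed in type between the libraries. In control 1 passed the mast list and 27 the macrophage list, against 627 and 1003 in the Mll4-labelled library. The 4 granulocyte-monocyte markers (Mpo, Elane, Prtn3 and Ctsg) were in none of the lists used for removal. Their sum was 9860 CPM in the Mll4-labelled library and 980.1 in control. The MPP3 gate described below held 69.5% of cells in the Mll4-labelled library and 44.4% in control. The cells left after removal were thus not matched in type to those of control.

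Within the core, over all kept cells, the lowest ratios with Mll4 were spread over both rings. Psma1 was at 210.0, 251.2, 140.0 and 137.1 CPM (log2 -0.59 with Mll4). Psmb1 was at 357.8, 422.6, 232.0 and 345.6 (-0.63), low in the Mll4-labelled library alone. Psmb6, the constitutive counterpart of Psmb9, was at 240.3, 281.4, 156.4 and 213.0 (-0.62). The exceptions within the core were Psma7 at 472.4, 556.5, 466.3 and 382.6 (-0.02) and Psmb3 at 213.7, 230.5, 188.8 and 198.9 (-0.18). The other constitutive catalytic genes were Psmb5 at 246.0, 304.7, 184.2 and 193.7 (-0.42) and Psmb7 at 114.4, 133.8, 79.2 and 106.3 (-0.53).

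In the cap the 6 ATPase genes split evenly, 3 above and 3 below control. Psmc1 was called higher with Mll4 at 70.3, 86.1, 110.1 and 67.1 CPM (log2 0.65, 0.61 to 0.69). The Mll4-labelled library was the highest of the 4, also without the cells that carry markers of other types (120.2 against 70.7 in control). Psmc3, another ATPase, was at 143.0, 168.6, 179.8 and 160.8 (0.33), above control in every mutant library. Psmd2, a scaffold subunit of the cap, was at 93.2, 112.8, 118.5 and 81.7 (0.35). The cap gene called lower was Psmd7, at 209.0, 233.5, 136.3 and 135.7, with a log2 ratio of -0.62 both here and with Mll3/4.

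Among the activators, Psme2b was highest in the Mll4-labelled library at 3.54, 3.12, 14.3 and 2.89 CPM (log2 2.01, 1.86 to 2.17). This gene is a copy of Psme2 (chromosome 11, 48945354 to 48946190, minus strand, GRCm38) that overlaps Gm12185 and 9930111J21Rik1 on its own strand, so its counts are uncertain. Its level in that library was 37.8 in cells with markers of other types and 7.68 in cells without them, so the value moved with those cells. Psme4, the activator PA200, was at 34.2, 35.9, 40.9 and 38.9 (0.26). Psme3 was at 40.05, 43.9, 45.4 and 30.5.

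The chaperone Psmg1, partner of Psmg2 in assembling the alpha ring, was low in both libraries with an Mll4 label (chromosome 16, 95979933 to 95990960, minus strand, GRCm38). It was at 67.6, 83.4, 36.6 and 27.5 CPM, with log2 ratios of 0.30, -0.89 (-0.94 to -0.83) and -1.30 (-1.38 to -1.22). The levels of these 2 libraries lay below control in all 5 gates, with ratios of -1.501 to -0.50 with Mll4 and -1.42 to -0.67 with Mll3/4. Psmg2 itself was at 71.8, 76.0, 64.9 and 50.7. Of the 7 chaperone genes 3 were called lower with Mll4 (20.5% of background genes) and 4 with Mll3/4 (29.3%).

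In the Mll3/4-labelled library 10 of 48 members were called lower, where 29.3% of background genes were, and none was called higher, where 17.5% were. The median log2 ratio was -0.18, near the background median of -0.13. All 15 constitutive core genes were below control (median -0.33, 3 called lower), while 16 of the 17 cap genes lay within 0.25 of control on the log2 scale. Of the 11075 background genes 6475 were below control, and 30.7% lay within 0.25 of it. The cap median was -0.04, and it was 0.04 with TMM and 0.07 with median-of-ratios scaling, so its direction depended on the scaling. Nearly every cell of this library was B-lineage-like, and cell type and genotype cannot be told apart in it.

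The largest differences with Mll3/4 were in single genes. Psma8, the alpha subunit known from the testis form of the core, was at 11.7, 9.08, 6.27 and 0.433 CPM (log2 -0.37, -0.90 and -4.73). The last value rests on 22 UMIs, against 1398 in control, with an interval of -5.44 to -4.15 for the ratio. In the control library Psma8 was at 18.9 in the HSC gate and 3.04 in the MPP4 gate, the highest and the lowest of the 5 gates described below. Within the HSC gate it was at 18.9, 11.05, 13.1 and 0.99, the last from 2 UMIs. The part of the low stem cell marker level of that library in this value was not tested.

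Psme1, the alpha subunit of the PA28 cap (chromosome 14, 55578123 to 55581529, plus strand, GRCm38), was at 471.3, 520.5, 469.4 and 229.1 CPM. Its log2 ratios were 0.14, -0.01 and -1.04 (-1.07 to -1.01), and the Mll3/4-labelled library stood alone below the other 3. Its partner Psme2 was at 181.7, 219.2, 160.4 and 149.0, a ratio of -0.29 in the same library. Psme1 was low there in all 5 gates, between -1.11 and -0.76. Psma1 and Psmd7, whose values stand above, completed the 5 lowest at -0.62 each. Above control were 7 members, where 4600 of the 11075 background genes were. Psmb9 was at 0.43, Psme4 at 0.19, Psmc3 at 0.17, Psmd8 and Psmc4 at 0.04 and Psmd12 at 0.03, and the cap chaperone Psmd9 was at 49.6, 63.1, 34.9 and 51.3 CPM (0.05).

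The immunoproteasome genes divided in the Mll3/4-labelled library. Psmb8, the counterpart of Psmb5, was at 703.2, 877.0, 381.5 and 617.8 CPM, with log2 ratios of 0.32, -0.88 and -0.19. Psmb9, the counterpart of Psmb6, was at 291.2, 376.6, 154.3 and 392.9, with ratios of 0.37, -0.92 and 0.43. Psmb10, the counterpart of Psmb7, was at 178.2, 238.4, 112.6 and 120.8, with ratios of 0.42, -0.66 and -0.56. All 3 were highest or near highest in the Mll3-labelled library and lowest in the Mll4-labelled one, but with Mll3/4 Psmb9 was above control and Psmb10 below it. With TMM scaling Psmb9 also passed the call in that library.

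Each immunoproteasome gene was also set against its constitutive counterpart. Psmb8, Psmb9 and Psmb10 made up 66.1% (65.9 to 66.3, exact Clopper-Pearson interval) of the UMIs of the 6 catalytic genes in control, 67.5% (67.3 to 67.6) with Mll3, 60.7% (60.4 to 61.0) with Mll4 and 68.8% (68.5 to 69.1) with Mll3/4. These percents also depend on how well each transcript is captured, so they are compared between libraries only. In the Mll4-labelled library the constitutive partners were lower as well, so the share moved by less than the level. Psmb8 took 74.1%, 74.2%, 67.4% and 76.1% of its pair. Psmb9 took 54.8%, 57.2%, 49.7% and 64.8%, and Psmb10 took 60.9%, 64.1%, 58.7% and 53.2%. The Mll3/4-labelled library thus had the highest share for Psmb9 and the lowest for Psmb10.

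**Figure D3:**
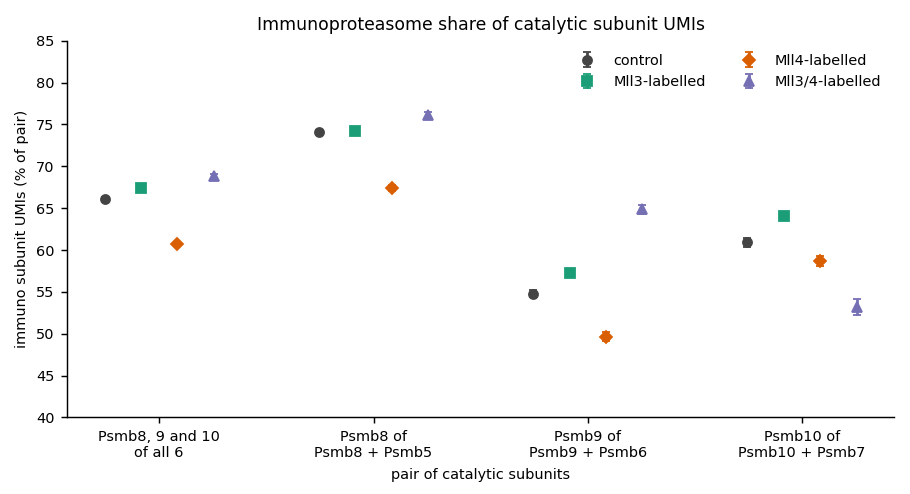
Percent of UMIs from the immunoproteasome gene in each pair of catalytic subunits, and over all 6 genes, in the 4 libraries; bars are exact 95% intervals of counting error and the axis starts at 40%. The Mll3/4-labelled library is highest for the Psmb9 pair (64.8%) and lowest for the Psmb10 pair (53.2%).

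Psmb8 and Psmb9 lie side by side with the peptide transporter genes Tap1 and Tap2 in the class II region of chromosome 17. In GRCm38 the order is Psmb9 (34181987 to 34187764, minus strand), Tap1 (34187553 to 34197225, plus), Psmb8 (34197721 to 34201454, plus) and Tap2 (34203527 to 34216321, plus). Psmb9 and Tap1 are read outward from starts that RefSeq places 226 bases apart. Their GENCODE models overlap on opposite strands, and whether the counting used strand is not given in the sources used here. Tap1 was at 99.5, 131.2, 93.1 and 154.2 CPM, with log2 ratios of 0.40, -0.10 and 0.63. It was above control where Psmb9 was, with Mll3 and with Mll3/4, but with Mll4 it was near control while Psmb9 was at -0.92. Tap2 was at 103.9, 104.3, 62.7 and 90.4 (0.00, -0.73 and -0.20). Psmb10 lies apart, on chromosome 8 (105935735 to 105938444, minus strand).

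Promoter sequences are shown for the genes whose levels parted: the immunoproteasome pair on chromosome 17, Psme1, the constitutive counterparts Psmb5 and Psmb6, Psmc1 as the cap gene called higher, and Psmg1. Each runs 5′ to 3′ on the gene's strand from 250 bases before to 50 after the RefSeq start (GRCm38.p6). Capitals mark matches, on either strand, to TGACNNNGC (antioxidant response element, the site of the proteasome regulator Nfe2l1), GAAA, any 2 bases and GAAA (interferon-stimulated response element), TTCNNNGAA (interferon-gamma activated site), CCGGAAG (ETS) and CCAAT (NF-Y).
Psmb9: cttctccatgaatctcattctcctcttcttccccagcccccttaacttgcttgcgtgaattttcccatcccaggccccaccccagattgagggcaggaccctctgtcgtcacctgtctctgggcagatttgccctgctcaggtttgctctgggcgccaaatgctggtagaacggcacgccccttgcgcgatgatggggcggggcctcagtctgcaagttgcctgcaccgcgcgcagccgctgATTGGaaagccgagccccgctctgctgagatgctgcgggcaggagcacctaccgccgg
Psmb8: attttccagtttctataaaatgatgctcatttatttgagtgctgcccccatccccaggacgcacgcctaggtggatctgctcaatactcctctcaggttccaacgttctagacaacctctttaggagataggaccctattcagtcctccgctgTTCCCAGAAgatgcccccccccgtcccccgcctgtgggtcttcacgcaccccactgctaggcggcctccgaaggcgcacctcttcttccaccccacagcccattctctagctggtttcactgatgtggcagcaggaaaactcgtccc
Psme1: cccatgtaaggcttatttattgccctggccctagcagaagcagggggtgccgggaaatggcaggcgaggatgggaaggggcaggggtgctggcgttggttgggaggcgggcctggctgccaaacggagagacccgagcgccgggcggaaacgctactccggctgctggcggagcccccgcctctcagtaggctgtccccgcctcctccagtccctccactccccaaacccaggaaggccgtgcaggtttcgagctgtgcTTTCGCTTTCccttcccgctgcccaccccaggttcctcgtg
Psmb5: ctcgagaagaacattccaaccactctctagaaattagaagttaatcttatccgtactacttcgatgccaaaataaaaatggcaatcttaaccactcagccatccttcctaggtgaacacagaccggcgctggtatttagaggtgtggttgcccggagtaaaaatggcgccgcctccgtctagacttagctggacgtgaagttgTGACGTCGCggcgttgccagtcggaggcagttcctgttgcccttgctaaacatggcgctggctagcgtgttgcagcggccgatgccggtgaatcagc
Psmb6: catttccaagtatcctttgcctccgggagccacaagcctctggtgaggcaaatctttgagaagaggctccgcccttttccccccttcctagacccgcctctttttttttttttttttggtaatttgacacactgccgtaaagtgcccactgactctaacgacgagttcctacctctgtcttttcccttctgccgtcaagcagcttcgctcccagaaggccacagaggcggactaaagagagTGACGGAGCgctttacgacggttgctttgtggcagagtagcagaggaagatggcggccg
Psmc1: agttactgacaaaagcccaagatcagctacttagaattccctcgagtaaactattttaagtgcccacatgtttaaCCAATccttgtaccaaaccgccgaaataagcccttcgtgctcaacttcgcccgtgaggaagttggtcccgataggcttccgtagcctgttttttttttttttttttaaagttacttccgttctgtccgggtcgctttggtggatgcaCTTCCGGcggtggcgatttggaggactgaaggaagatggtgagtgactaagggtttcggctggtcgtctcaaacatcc
Psmg1: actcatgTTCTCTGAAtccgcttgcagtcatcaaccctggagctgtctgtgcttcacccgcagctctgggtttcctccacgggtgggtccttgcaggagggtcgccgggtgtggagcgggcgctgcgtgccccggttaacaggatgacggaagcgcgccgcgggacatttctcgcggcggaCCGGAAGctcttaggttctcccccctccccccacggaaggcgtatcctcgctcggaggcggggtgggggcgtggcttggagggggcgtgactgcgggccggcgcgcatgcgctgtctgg

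These windows are chr17:34187281-34187580 (minus) for Psmb9, chr17:34197945-34198244 (plus) for Psmb8, chr14:55578244-55578543 (plus) for Psme1 and chr14:54617946-54618245 (minus) for Psmb5. The others are chr11:70525107-70525406 (plus) for Psmb6, chr12:100109952-100110251 (plus) for Psmc1 and chr16:95990911-95991210 (minus) for Psmg1. GENCODE starts Psmb9 at 34187764, Psmb8 at 34197721 and Psme1 at 55578123, so their windows and matches lie inside those gene models. RefSeq promoters were matched for 40 of the 48 members. The ETS letters were in 13 of the 40 (32.5%), against 9.12% of 27025 promoters of the same length. Those 27025 were 1 for each gene listed, not only the 11075 genes at the level minimum. The percents of this paragraph are thus not matched for expression. The ETS letters were in 9 of 14 cap promoters and in none of 11 constitutive core or 3 immunoproteasome promoters. CCAAT was in 13 (32.5%, against 37.9%), of which 6 were core promoters. The antioxidant letters were in 6 (15%, against 12.5%), Psmb5 and Psmb6 among them. The interferon-stimulated letters were in 5 (12.5%, against 3.49%), including Psme1, and the interferon-gamma letters in 3 (7.5%, against 8.47%), Psmb8, Psmd2 and Psmg1. A match is a description of letters, and binding was not measured.

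Levels were then compared within gates set on the 6 antibodies counted with the RNA. CD135 set the MPP4 gate (CD135+CD150-) apart. Among CD135- cells the HSC gate was CD150+ and CD48-, the MPP1 gate had neither marker, the MPP2 gate had both and the MPP3 gate was CD48+ and CD150-. HSC stands for stem cells and MPP for multipotent progenitors, named here by antibody alone. The HSC gate held 1693, 2681, 349 and 203 cells and the MPP4 gate 890, 659, 671 and 2177. A gate on CD150+CD135+ cells had 25 in the Mll4-labelled library and was not used for it.

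In the HSC gate the immunoproteasome sum was 1057, 1410, 609.5 and 1092 CPM, and in the MPP4 gate it was 1289, 1589, 687.7 and 1125. With Mll3/4 it was below control in the MPP4 gate. In the HSC gate it could not be told from control by counting error, at 1046 to 1138 against 1043 to 1070. Over the 5 gates it ran from 1092 to 1142 with Mll3/4 and from 1057 to 1289 in control. The CD150+CD135+ gate, not among the 5, held 34.6% of the Mll3/4-labelled cells. There the immunoproteasome sum was above control, at 1142 (1126 to 1159) with Mll3/4 against 983.7 (937.4 to 1032) in control. These sums came from 1644 and 127 cells. The ratios with Mll4 leave that gate out. The log2 ratio of the immunoproteasome sum with Mll4 was -0.91 to -0.77 over the 5 gates, and all 3 genes were called lower in each, where 14.2%, 16.7%, 14.1%, 22.8% and 27.8% of background genes were in the HSC, MPP1, MPP2, MPP3 and MPP4 gates. The standard subunits with Mll3 were above control by 0.22 to 0.30 in the 5 gates. With Mll3/4 Psmb9 was above control by 0.30 to 0.50 and Psmb10 below it, at -0.53 to -0.34.

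The cap and core parted within gates too, which still held the cells with markers of other types. In the HSC gate the constitutive core sum was 3310, 4165, 2436 and 2888 CPM and the cap sum 1852, 2338, 1838 and 1849. The cap in the Mll4-labelled library was thus at control level there (log2 -0.01) and the core below it (-0.44). In the MPP4 gate the cap was lower as well, at -0.34, and the core at -0.66. Of the 45 standard genes 9 were called lower in the HSC gate, where 14.2% of background genes were, and 23 in the MPP4 gate, where 27.8% were.

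**Figure D4:**
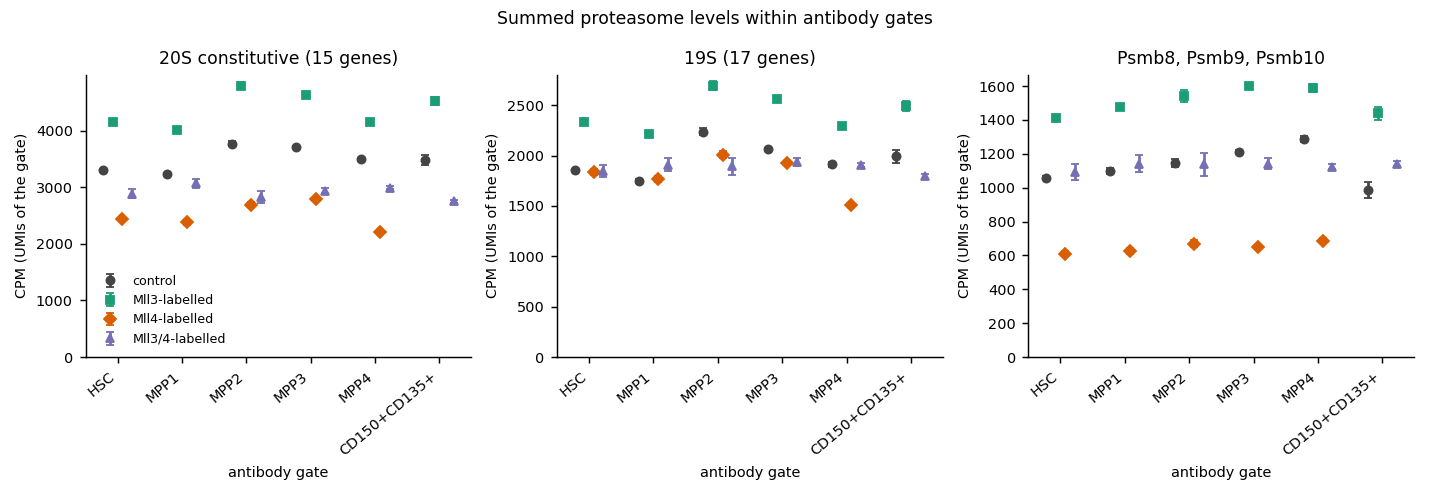
Summed CPM of the 15 constitutive core genes, the 17 cap genes and the 3 immunoproteasome genes within antibody gates, with 1 point per library; bars are exact 95% Poisson intervals, axes start at 0, and the Mll4-labelled point is left out for CD150+CD135+, with 25 cells. The Mll4-labelled immunoproteasome sums lie lowest in every gate shown for that library, while its cap sums lie near control in the HSC and MPP1 gates.

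Dividing cells, those with at least 5 UMIs of 10 division genes per 10000, were 37.4%, 39.9%, 35.2% and 27.1% of the libraries, and 202 to 295 cells per library lay near that limit. Within each library dividing cells were set against the other cells. By the call, 1, 1, 11 and 2 of the 48 members were higher in dividing cells, where 9.09%, 10.8%, 13.6% and 17.3% of background genes were. The median log2 ratio over the 48 members was 0.17, 0.27, 0.42 and 0.19, against -0.07 to -0.04 for background genes. Of the 17 cap genes 17, 17, 17 and 16 were above 0, where 4976, 5068, 5107 and 4890 of the 11075 background genes were. Psmd13, a cap subunit, had ratios of 0.53, 0.65, 0.59 and 0.67. Psmb10 (-0.19, -0.14, 0.02 and -0.30) and Psme1 (-0.16, -0.17, -0.08 and -0.10) were at or below 0 in most libraries, while Psmb9 (0.34, 0.30, 0.20 and 0.27) was above 0 in each. The Mll4-labelled values include the cells with markers of other types, of which the division sum was 523.4 CPM against 2107 in the remaining cells.

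**Figure D5:**
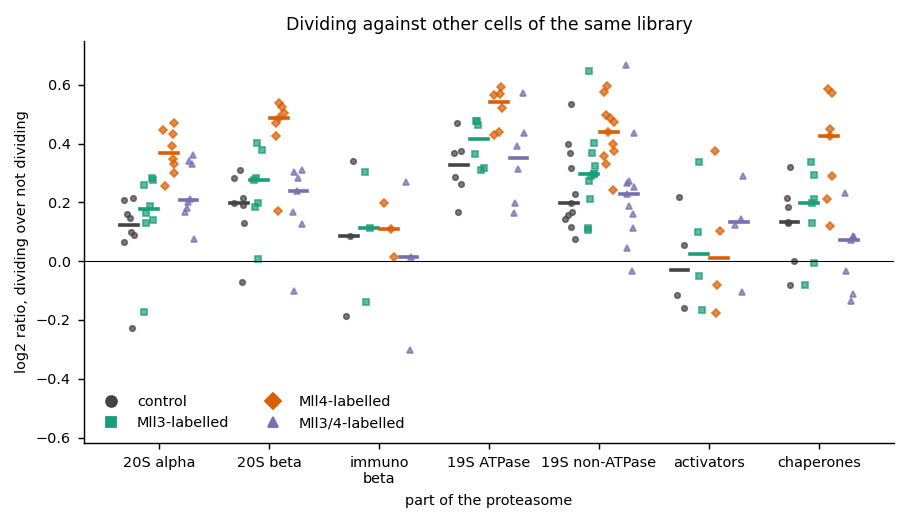
Log2 ratio of dividing over other cells within each library, by part of the proteasome; each point is 1 gene, short lines are medians, and Psme2b and Psmf1 are not drawn. Cap genes lie above 0 except for 1 in the Mll3/4-labelled library, and the immunoproteasome genes lie on both sides of 0 in each library but the Mll4-labelled, where all 3 are above it. Of the 11075 background genes 4890 to 5107 lie above 0.

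Since nearly all cells of the Mll3/4-labelled library had B-lineage transcripts, they were also set beside B-lineage-like cells of the Mll3-labelled library, dividing cells only (1274 and 192 cells). The control had 16 such cells, too few to use. Standard subunits took 5938 CPM with Mll3/4 and 9996 with Mll3, a log2 ratio of -0.75 (-0.77 to -0.74). Of the 45 genes 34 were called lower, where 27.3% of background genes were, and 1 was called higher, where 24.8% were. The core was at -0.84, with all 15 genes called lower, and the cap at -0.63, with 13 of 17.

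In this comparison Psmb9 was nearly equal, at 443.0 CPM with Mll3/4 and 449.9 with Mll3. Psmb8 was at 622.4 and 983.3, and Psmb10 at 104.2 and 191.1. Psme1 was at 215.8 and 416.7 (log2 -0.95), and Psmg1 at 26.3 and 79.3 (-1.59). The division genes also set which cells counted as dividing, so their summed levels of 5375 and 5290 do not show that the cells are matched. Median UMIs per cell were 14109 with Mll3/4 and 23446.5 with Mll3. In B-lineage-like cells that were not dividing the standard sum ran the other way, 5265 CPM with Mll3/4 and 3854 with Mll3, the latter from 48 cells, under the minimum of 50.

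Genes that work with the proteasome were read from lists. Of 12 factors outside the symbol rule, 4 were called higher and 2 lower with Mll4, beside 17.2% and 20.5% of background genes. The higher ones were Nfe2l1, the transcription factor that raises proteasome genes when the protease is inhibited, at 38.1, 32.6, 74.95 and 45.0 CPM (log2 0.97), its relative Nfe2l2 (0.79), the protease Ddi2 that activates Nfe2l1 (0.57), and Sem1 (1.04). The lower ones were Zfand5 (-0.80) and Txnl1 (-0.72). Pomp, the chaperone of core maturation, was at 320.9, 354.7, 232.1 and 360.3.

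Ubb, a ubiquitin gene, was at 2534, 3112, 1547 and 2401 CPM, with a log2 ratio of -0.71 with Mll4. Of 11 class I processing genes none was called with Mll3 (7.47% higher and 6.26% lower in the background). With Mll4 2 were called higher (Calr 1.18 and Tapbp 0.87, background 17.2%) and 1 lower (Tap2 -0.73, background 20.5%). With Mll3/4 1 was called higher (Tap1, background 17.5%).

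Interferon response genes were examined because interferon induces the immunoproteasome. Of 16, all were above control with Mll3 (median log2 ratio 0.35, 3 called higher beside 7.47% of background genes), among them Igtp at 23.1, 57.0, 20.2 and 22.4 CPM. So were 7480 of the 11075 background genes, with a median of 0.10. With Mll4 6 were called higher and 3 lower, beside 17.2% and 20.5% of background genes. Their sum moved with the cells that carry markers of other types: it was 879.9 CPM in those cells and 526.8 in the rest of that library, against 545.8 in the rest of the control. With Mll3/4 3 were called higher (Ifit1, Ifit3 and Usp18) and 4 lower (Irf1, Irf8, Gbp3 and Bst2), beside 17.5% and 29.3% of background genes. Ifit3, at 1.79, 2.43, 4.61 and 10.8 CPM, met the level minimum through the Mll3/4-labelled library alone. Its being highest there follows from the filter. Irf1, a factor known to act at the Psmb9 promoter, was at 53.9, 65.8, 44.9 and 20.003. It was lowest in the Mll3/4-labelled library, where Psmb9 was highest and where cell type and genotype cannot be told apart. A link between these genes was not tested.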

How the data were processed

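The deposited matrices held raw UMI counts of 32285 genes and 6 antibodies per barcode, per the file headers written by Cell Ranger 6.1.1, on mm10 per the submitters' processing notes. Kept barcodes had 1000 genes or more and a mitochondrial share of UMIs no higher than 10%. Counts were summed per library or class of cells and divided by that total (CPM), and ratios had 0.5 UMIs added. Intervals are exact Poisson, conditional binomial or Clopper-Pearson. Groups came from the titles. Doublets stayed in: Scrublet (scanpy 1.11.5) called 3, 3, 171 and 1 cells and so did not work in 3 libraries, and leaving out the highest scores was an alternative. Gates used centred log ratios with 1 mixture threshold per antibody, cell classes at least 5 marker UMIs per 10000, and at least 50 cells. edgeR 4.0.16 gave TMM factors only. The ratios and intervals were tested on simulated counts. Coordinates are GENCODE vM21 (32235 gene identifiers matched). Genes named in full were Psmb5 to Psmb10, Psme1, Psme2 and the 5 highest and 5 lowest members per comparison, and others came from fixed lists. The members and lists were chosen with earlier results of these data known. Some genes of these lists are not reported here.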

Additional observations from a re-analysis of the deposited data

How the results depend on the processing

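With 1 library per genotype, sampling of mice, library preparation and genotype cannot be told apart. Over whole libraries depth limits mainly the rarest members (Psma8 and Psme2b). Within gates it limits more of them, and the gate ranges of single genes are given without intervals. The MPP2 gate of the Mll3/4-labelled library held 102 cells and 982982 UMIs, of which 122 were from Psmb10. Leaving out the highest doublet scores or loosening the cell filter moved no summed ratio, share or count of calls beyond its interval or 1.5 times, and no alternative turned the direction of the summed ratio of the standard subunits. The cap sum turned with Mll4 without cells of other types (-0.08 to 0.03) and with Mll3/4 under median-of-ratios (-0.08 to 0.02). The immunoproteasome sum with Mll3/4 turned from -0.05 to 0.02 with TMM, 0.05 with median-of-ratios and 0.01 with equal weight per cell. For Mll3, Mll4 and Mll3/4, the summed log2 ratio of the standard subunits was 0.15, -0.21 and -0.20 with TMM, 0.15, -0.20 and -0.17 with median-of-ratios (which shifted all genes by -0.10, 0.05 and 0.11), 0.16, -0.30 and -0.33 without mitochondrial and ribosomal protein genes in the totals, 0.27, -0.30 and -0.31 with a stricter cell filter, and 0.24, -0.40 and -0.29 with equal weight per cell. For Mll4 it was -0.15 without cells of other types and -0.18 when the immunoglobulin list was not used to find them. In cells that were not dividing it was 0.21 with Mll3 and -0.39 with Mll4. The last 2 settings were chosen after seeing the data. At a fold of 2 the members past it were 0, 1 and 3. At the call used throughout (log2 past 0.5) there were 2 members with Mll3 without the level minimum (Psmb11 added). There were 8 with Mll4 without cells of other types (2 higher and 6 lower, against 2 and 16) and 11 without the immunoglobulin list. With Mll3/4 there were 6 under TMM and 6 under median-of-ratios (1 higher and 5 lower, against 0 and 10). The immunoproteasome share was 65.6%, 67.0% and 68.2% in control, Mll3 and Mll3/4 with the stricter filter. With equal weight per cell it was 66.7%, 68.3%, 64.8% and 70.5%, and in cells not dividing 67.3%, 69.3%, 64.9% and 70.1%, over the 4 libraries in order. In the Mll4-labelled library it was 59.2% without cells of other types and 59.5% without the immunoglobulin list. No paired analysis was possible because each genotype had 1 library.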
